A study of Homo sapiens with 18 samples.

Results

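The MACS peaks and SISSRS sites of DNA topoisomerase II beta (TOP2B) were described in the human myeloid leukaemia line KG-1, with and without the drug mitoxantrone. The members were all peaks and sites of 2 libraries, taken by their labels. These were TOP2B untreated, from cells kept for 1 h without drug or vehicle, and TOP2B mitoxantrone, from cells given 0.5 µM mitoxantrone for 1 h. Together they hold 9992 of the 1413022 MACS peaks of the series, 9290 in the untreated list and 702 in the mitoxantrone list. The series has 18 samples, of which 12 immunoprecipitated libraries have peak lists and 6 inputs were not analysed here. Each library came from chromatin fixed with 1% formaldehyde for 10 min, with 3 precipitations, each with 4 µg of TOP2B antibody, pooled before sequencing. TOP2A untreated and TOP2A mitoxantrone, made alike with 5 µg of TOP2A antibody, and 8 libraries of an experiment with 100 µM etoposide or methanol vehicle for 1 h serve for comparison. With 1 library per group no difference below has a replicate check or a test, so all are differences between libraries. The drug and a difference between precipitations cannot be told apart.

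Topoisomerase II enzymes pass one DNA duplex through a break they make in both strands of another. They are joined to the DNA ends while the break is open. TOP2B is expressed in dividing and resting cells and is known for its place at active promoters, enhancers and the anchors of chromatin loops, while TOP2A is mainly an enzyme of dividing cells. Mitoxantrone is an anthracenedione that inserts itself between base pairs and holds topoisomerase II on cleaved DNA. It is used against leukaemia and other cancers. MACS reports regions where reads pile up, and the width of a peak is the length of that region. SISSRS reports short sites from the change of read direction on either side of a bound protein.

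The mitoxantrone list was short and its peaks were broad. It held 702 peaks against 9290 in the untreated list (13.2-fold fewer), but covered 1044 kb against 4614 kb (4.42-fold less). Peaks in the untreated list had a median width of 462 bp, with 10% below 354 bp and 10% above 664 bp. In the mitoxantrone list the median was 1126.5 bp, with 10% below 687.1 bp and 10% above 2963.4 bp. The median was thus 2.44 times the untreated one, and 90% of mitoxantrone peaks were wider than 90% of untreated ones. At least 1000 bp was reached by 183 untreated peaks (1.97%, 95% interval 1.70 to 2.27%) and by 432 mitoxantrone peaks (61.5%, 57.8 to 65.2%). At least 2000 bp was reached by 15 untreated peaks (0.161%) and 128 mitoxantrone peaks (18.2%, 15.4 to 21.3%). At least 5000 bp was reached by 1 and 11 peaks. The intervals are exact binomial (Clopper-Pearson) and cover counting error only. In number, then, there were more peaks of 1000 bp or wider with mitoxantrone than without, although the whole list was shorter. The median width of TOP2A peaks was 492 bp untreated and 550 bp with mitoxantrone, so the 2 antibodies went in the same direction by unlike amounts. The difference between antibodies was not tested.

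The medians of the scores were close between the lists, although within the mitoxantrone list broader peaks scored somewhat higher. The deposited MACS score, which starts at 50, had a median of 57.21 in the untreated list and 56.1 in the mitoxantrone list. Scores below 60 made up 61.2% and 66.2% of the lists, and scores of at least 100 made up 1.47% and 1.57%. The highest score was 2974.8 untreated and 619.48 with mitoxantrone. Across the 702 mitoxantrone peaks, which share 1 library, Spearman's rho of width and score was 0.217, and the 11 peaks scoring 100 or more had a median width of 3654 bp. Across the untreated peaks rho was 0.0596, and the 137 peaks scoring 100 or more had a median width of 588 bp. Just above the lowest score of the mitoxantrone list lay peaks of ordinary width for it, on chromosome 4 at 55002606 to 55003385 (score 50.01, 780 bp), on chromosome 13 at 63283595 to 63284535 (50.01, 941 bp) and on chromosome 2 at 115278882 to 115279877 (50.02, 996 bp). Most of both lists therefore lies close to the lowest score. No source used here gives the read totals, so the depth is unknown.

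The broadest peaks were concentrated on chromosome 8. Of the 128 mitoxantrone peaks of 2000 bp or wider, 111 lay there (86.7%, 79.6 to 92.1%). The untreated list had 6 of its 12 such peaks on chromosomes 1 to 22 and X there. On chromosome 8 the median width was 672 bp untreated and 2681 bp with mitoxantrone. On the other chromosomes it was 458 bp and 1017 bp. The ratio of chromosome 8 to the rest was thus 1.47 without drug and 2.64 with it. It was 1.24 and 1.86 for TOP2A. Among the other chromosomes with at least 10 peaks the median ran from 429 bp (X) to 484 bp (22) untreated and from 894 bp (22) to 1439 bp (21) with mitoxantrone. Peaks outside chromosome 8 were therefore also broader in the mitoxantrone list, and every one of these chromosomes had a higher median there than any had in the untreated list.

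**Figure D1:**
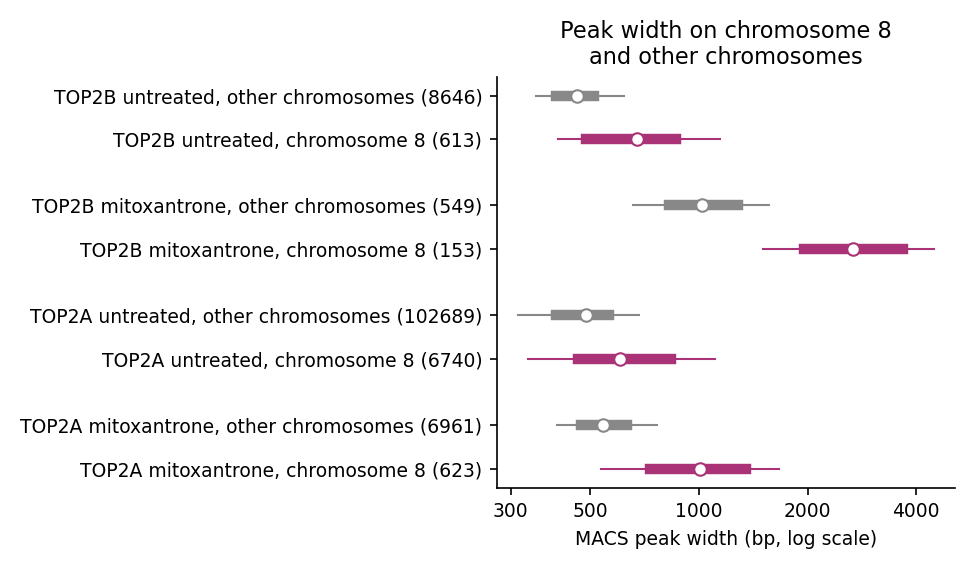
Width of MACS peaks on a log scale for the 4 libraries of the mitoxantrone experiment, split into chromosome 8 (purple) and other chromosomes (grey), with the number of peaks in brackets. Circles are medians, thick bars run from the 25th to the 75th percentile and thin lines from the 10th to the 90th. Chromosome 8 peaks of TOP2B mitoxantrone have a median of 2681 bp and those of TOP2B untreated 672 bp.

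Chromosome 8 also held a larger share of the mitoxantrone peaks. It makes up 5.02% of the span of chromosomes 1 to 22 and X. It held 613 of 9259 untreated peaks (6.62%, 6.12 to 7.15%) and 153 of 702 mitoxantrone peaks (21.8%, 18.8 to 25.0%). Per Mb this was 1.32 and 4.34 times the mean of the list. In bases covered by peaks its share was 9.83% and 41.9%. The number of peaks was 4.01 times lower with mitoxantrone on chromosome 8 and 15.7 times lower elsewhere (8646 and 549 peaks). The bases covered on chromosome 8 were nearly equal, 450 kb untreated and 437 kb with mitoxantrone, while on other chromosomes they were 4132 kb and 607 kb (6.81-fold less). Fewer and broader peaks thus covered about as much of chromosome 8 as the many narrow ones of the untreated library. The TOP2A share was 6.16% untreated and 8.21% with mitoxantrone, and the 8 lists of the etoposide experiment had 9.85 to 10.4%. A share above the span is therefore common to all 12 lists, and the TOP2B mitoxantrone value was the highest among them. The number of copies of chromosome 8 in these cells was not measured here, and its part in these shares was not tested.

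Width and chromosome were tied to each other within both lists. In the untreated list chromosome 8 held 2.64% of peaks under 500 bp, 12.8% of those from 500 to under 1000 bp and 56.0% (47.9 to 63.8%) of those from 1000 to under 2000 bp. In the mitoxantrone list it held none of the 12 peaks under 500 bp (which allows up to 25%), 1.16% from 500 to under 1000 bp, 12.8% from 1000 to under 2000 bp, 83.3% from 2000 to under 3000 bp and 89.7% (79.9 to 95.8%) of those of 3000 bp and wider. So the broad peaks of the untreated library were mostly on chromosome 8 too, 95 of 171 (55.6%, 47.8 to 63.1%) at 1000 bp or more. At that width the mitoxantrone share was lower, 150 of 432 (34.7%, 30.2 to 39.4%). Under 1000 bp chromosome 8 held 518 untreated peaks (5.70%) and 3 mitoxantrone peaks (1.11%), where the other chromosomes held 8570 and 267. By score the chromosome 8 share of mitoxantrone peaks was 19.6% below 60, 24.3% from 60 to under 100 and 7 of 11 at 100 or more (63.6%, 30.8 to 89.1%). For untreated peaks these shares were 6.04%, 7.40% and 11.3%.

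Arm by arm, the long arm of chromosome 8 stood apart. It is 3.49% of the span and held 468 untreated peaks (5.05%, 4.62 to 5.52%) and 140 mitoxantrone peaks (19.9%, 17.0 to 23.1%). Its density was 1.45 and 5.72 times the list mean, and its median width 733 bp and 2716.5 bp. The short arm held 145 (1.57%) and 13 (1.85%, 0.990 to 3.15%) peaks, close to its 1.54% of the span. Of 42 arms, 37 had at least 5 mitoxantrone peaks expected from their untreated share. Among these the long arm of chromosome 8 was the 1 arm whose mitoxantrone share was at least 2 times its untreated share (2.7% of the arms, ratio 3.95). The next highest ratios were 1.35 for 14q, with 341 and 35 peaks, and 1.26 for 7p, with 210 and 20. At most 1/2 of the untreated share was left in 4 arms (10.8%). These were 19q with 106 and 3 peaks (ratio 0.373), 10p with 137 and 4 (0.385), 11q with 277 and 10 (0.476) and 20p with 82 and 3 (0.483). Since 8q takes so much of the mitoxantrone list, all other ratios are pressed down, and their median was 0.805. With chromosome 8 left out of both lists, the 35 remaining arms had ratios from 0.446 to 1.62, none at 2-fold or more and 2 at 1/2 or less. The low arms rest on 3 to 10 peaks each.

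**Figure D2:**
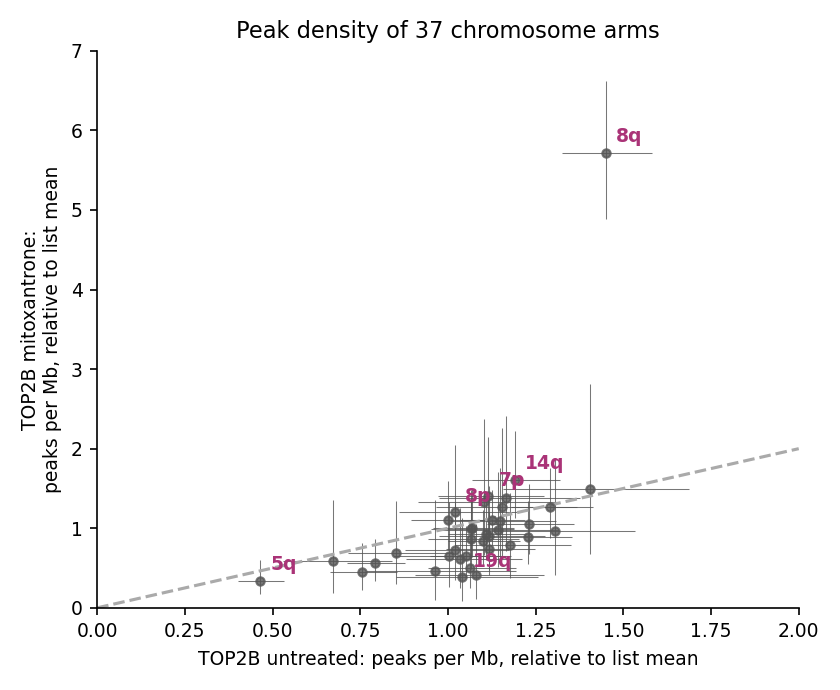
Peaks per Mb of each of 37 chromosome arms, relative to the mean of the list, in TOP2B untreated (x) and TOP2B mitoxantrone (y), with exact binomial 95% intervals for counting error and a dashed line of equality. The long arm of chromosome 8 lies at 1.45 and 5.72, and all other arms lie below 2 on both axes.

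Along chromosome 8 the density of mitoxantrone peaks changed within the short arm, before the centromere. An edge at 36 Mb, chosen after the values were seen, divides the short arm into 2 segments. Up to 36 Mb the density of mitoxantrone peaks was 0.451 times the list mean, from 36 Mb to the centromere gap it was 4.66 times, and on the long arm 5.72 times. For untreated peaks the same values were 0.984, 1.18 and 1.45, with no sharp step at either place. The 2 short-arm values with mitoxantrone rest on 4 peaks (0.570% of the list, 0.155 to 1.45%) and 9 peaks (1.28%, 0.588 to 2.42%). From 30 to 36 Mb there was 1 mitoxantrone peak and from 36 to 42 Mb there were 7, too few to place the change at 36 Mb. The untreated SISSRS sites had a clear step at 36 Mb, at 0.466, 13.4 and 11.1 times the mean. From 30 to 36 Mb there were 6 untreated sites and from 36 to 42 Mb there were 286. The mitoxantrone sites gave 0.739, 3.66 and 5.76 times, with 0 sites from 30 to 36 Mb and 14 from 36 to 42 Mb. In the etoposide experiment all 8 lists had 0.873 to 0.964 times the mean up to 36 Mb and 2.28 to 2.88 times from there to the gap. Median peak width changed over the same edge, from 453 bp up to 36 Mb to 837.5 bp beyond it and 733 bp on the long arm in the untreated list. Along the long arm the mitoxantrone density was above the mean in every window of 10 Mb. From 110 to 120 Mb it was highest for peaks, with 18 peaks (7.31 times), and for sites, with 51 sites (10.4 times). In deposited sites the end of the long arm differed between the libraries. From 142 to 146 Mb the untreated library had 520 sites and the mitoxantrone library 4, whereas from 136 to 142 Mb they had 196 and 16. TOP2A had a like contrast, with 1094 untreated and 12 mitoxantrone sites from 142 to 146 Mb, and 946 and 42 from 136 to 142 Mb. The TOP2B site lists start at 27 tags untreated and 62 with mitoxantrone, and these counts were not compared at a matched cut.

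**Figure D3:**
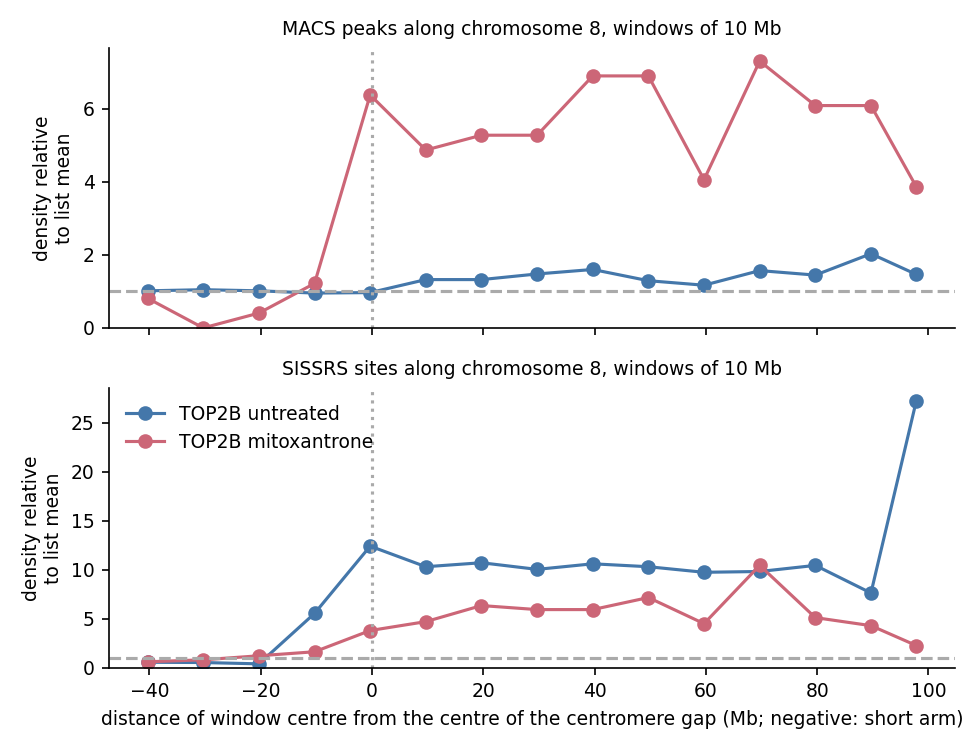
Density of MACS peaks (top) and SISSRS sites (bottom) in windows of 10 Mb along chromosome 8, relative to the mean of the list, against the distance of the window from the centromere gap in Mb. Mitoxantrone peaks (red) lie at or below 1.22 in the windows of the short arm up to 40 Mb and between 3.87 and 7.31 from there on, and untreated sites (blue) reach 27.2 in the last window.

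Peaks on chromosome 8 lay closer together than elsewhere. With mitoxantrone the median gap between neighbouring peaks was 474 kb on chromosome 8 and 2843 kb on the other chromosomes. Untreated it was 151 kb and 191 kb. Windows of 1 Mb with at least 1 mitoxantrone peak numbered 559. There were 110 with 2 or more and 25 with 3 or more, of which 18 were on chromosome 8. The fullest was on chromosome 8, with 5 peaks from 92 to 93 Mb (6 sites and 5 untreated peaks). The next 6 windows tied at 4 peaks, 5 on chromosome 8 and 1 on chromosome 7 from 1 to 2 Mb. The highest-scoring of these were from 139 to 140 Mb and from 76 to 77 Mb of chromosome 8, each with 2 sites and 6 untreated peaks. Merging peaks within 5 kb of each other left the median width of the whole mitoxantrone list at 1124.5 bp.

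The widest peaks of each list show the difference in form. In the mitoxantrone list they were on chromosome 8, at 52338066 to 52344412 (6347 bp, score 77.84), 117388417 to 117394669 (6253 bp, score 58.76) and 43516485 to 43522343 (5859 bp, score 66.1). None overlapped an untreated TOP2B peak, and the nearest was 90.9, 13.0 and 61.1 kb away. Each overlapped a peak in 4 to 6 of the 11 other lists. The widest untreated peaks were on chromosome 7 at 56437931 to 56443138 (5208 bp), chromosome 19 at 37759995 to 37764911 (4917 bp) and chromosome 8 at 144616433 to 144620803 (4371 bp). They held 1, 3 and 5 SISSRS sites, against 0, 1 and 0 in the mitoxantrone peaks just named. Outside chromosome 8, 17 mitoxantrone peaks reached 2000 bp, and 9 of these lay within 5 Mb of a centromere gap, compared with 40 of all 549 peaks there. The widest were on chromosome 21 at 10421456 to 10427143 (5688 bp, score 105.86), chromosome 16 at 33236842 to 33241613 (4772 bp) and chromosome 21 at 10619923 to 10624394 (4472 bp). No source used here says how reads with several matches were treated.

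The 2 callers did not give the same picture of chromosome 8. SISSRS placed 4528 of 10543 untreated sites there (42.9%, 42.0 to 43.9%) and 307 of 1393 mitoxantrone sites (22.04%, 19.9 to 24.3%). The share of sites was thus 20.9 percentage points lower with mitoxantrone, where the share of peaks was 15.2 points higher. In the mitoxantrone library both callers put about the same share on chromosome 8, and it was in the untreated library that they differed. Sites were 14.7 times fewer with mitoxantrone on chromosome 8 and 5.54 times fewer elsewhere, the reverse order of the peaks. For TOP2A the share of sites was 20.1% untreated and 27.5% with mitoxantrone, higher with the drug as for its peaks. The sites of the libraries differ in their lowest deposited tag count, which was 27 untreated and 62 with mitoxantrone. Among the untreated sites with at least 62 tags, a limit chosen after the values were seen, 22 of 121 were on chromosome 8 (18.2%, 11.8 to 26.2%). The mitoxantrone share lies within that interval, 3.86 points above the value. The signs by caller were thus opposite for the site lists as deposited. For this short list the interval reaches to both sides of the mitoxantrone share, so the sign is not settled. Since the depth is unknown, 62 tags need not mean the same in both libraries.

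**Figure D4:**
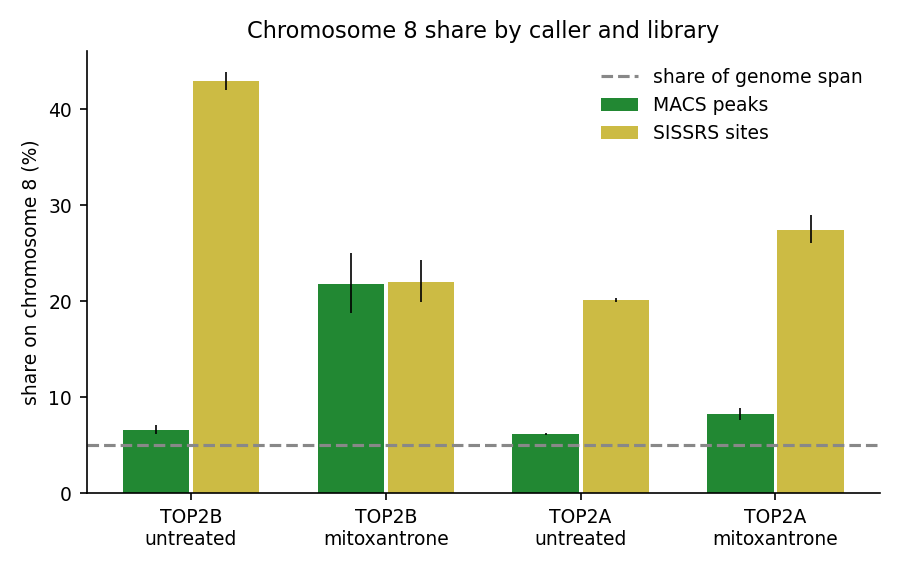
Share on chromosome 8 of MACS peaks (green) and SISSRS sites (yellow) in the 4 libraries of the mitoxantrone experiment, with exact binomial 95% intervals and a dashed line at the 5.02% of the span that the chromosome makes up. For TOP2B the peaks have 6.62% and 21.8% and the sites 42.9% and 22.04%, untreated and with mitoxantrone.

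Few of the broad peaks held a site. At least 1 SISSRS site overlapped 3051 untreated peaks (32.8%, 31.9 to 33.8%) and 90 mitoxantrone peaks (12.8%, 10.4 to 15.5%). On chromosome 8 this was 454 of 613 untreated peaks (74.1%, 70.4 to 77.5%) and 18 of 153 with mitoxantrone (11.8%, 7.12 to 18.0%). On the other chromosomes it was 29.8% and 13.1% (72 of 549). The chromosome that led the untreated library in this measure was thus level with the rest in the mitoxantrone library. No mitoxantrone peak held more than 1 site, while 67 untreated peaks held 2 or more and the fullest held 5. In the other direction, 28.4% of untreated sites and 6.44% (5.21 to 7.86%) of mitoxantrone sites were inside a peak. On chromosome 8 these shares were 10.9% and 5.86%, and elsewhere 43.2% and 6.63%. The site lists differ in their lowest deposited values, which were 27 tags and 2-fold untreated and 62 tags and 15.12-fold with mitoxantrone. Only 121 untreated sites on chromosomes 1 to 22 and X had 62 tags or more. The shares of peaks with a site were not compared at a matched cut, so the libraries and the cuts cannot be told apart here.

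With width the share of peaks that held a site rose in the untreated list and did not rise in the mitoxantrone list. Untreated peaks with a site made up 21.9% of those under 500 bp, 54.8% from 500 to under 1000 bp, 81.8% from 1000 to under 2000 bp, 5 of 6 from 2000 to under 3000 bp and all 6 of 3000 bp and wider. In the mitoxantrone list the share was 3 of 12 (25%, 5.49 to 57.2%), 16.3%, 10.9%, 10.0% and 8.82% (3.31 to 18.2%) over the same classes. The mitoxantrone intervals of neighbouring classes overlapped, so no fall with width was resolved. The unlike lowest values of the site lists apply here too. In the untreated list width also goes with chromosome 8, which held 2.64% of peaks under 500 bp and 56.0% from 1000 to under 2000 bp. There 74.1% of untreated peaks held a site, against 29.8% elsewhere. The shares by width were not split by chromosome, so width and chromosome cannot be told apart in the untreated rise. From 500 bp up the intervals of the 2 libraries did not overlap in any class. With score there was a like contrast. Of untreated peaks scoring 100 or more 78.2% held a site, and of the 11 such mitoxantrone peaks none did, which allows a share of up to 27.3%.

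**Figure D5:**
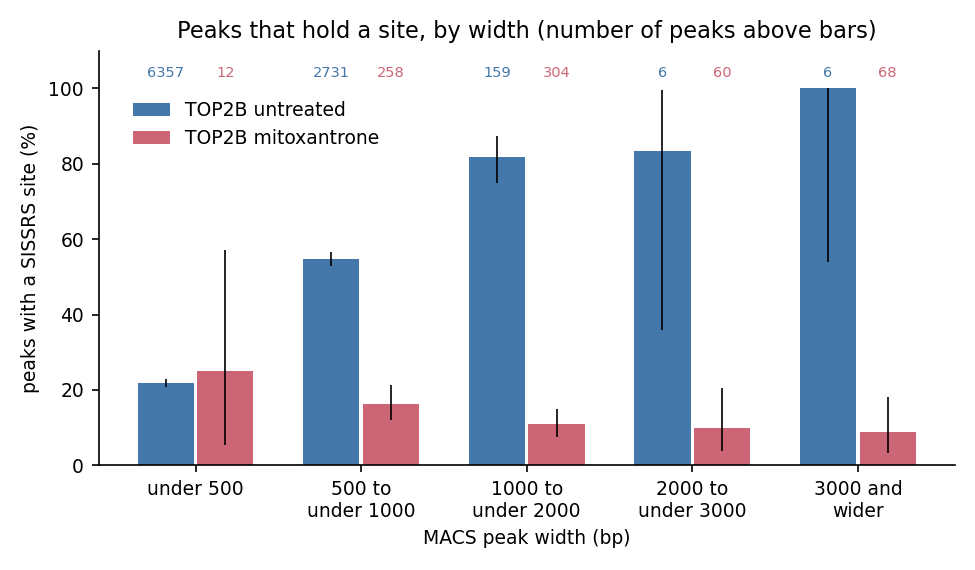
Share of MACS peaks that hold at least 1 SISSRS site, by peak width in bp, for TOP2B untreated (blue) and TOP2B mitoxantrone (red), with exact binomial 95% intervals and the number of peaks above. The untreated share goes from 21.9% to 100% over the classes. The mitoxantrone share is 25% (3 of 12) in the first and 8.82% in the last, with intervals that overlap.

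Sites were denser inside peaks than outside them in both libraries. The peaks and sites of a library are calls on the same reads, so an excess inside peaks was likely beforehand. It is no independent check of either list. On chromosome 8 there were 41.2 sites per Mb of peak and 2.02 per Mb outside (20.3 times), and elsewhere 119 and 0.374 (317 times). In the untreated library these values were 1099 and 28.2 (38.9 times), and 630 and 1.26 (499 times). Sites inside peaks lay near the middle. The central 50% of the peak's width held 94.4% of untreated sites inside peaks and 86.7% (78 of 90) of mitoxantrone ones. Sites inside mitoxantrone peaks had a median of 77 tags, against 67 for those outside, in a list that starts at 62. Their median deposited fold over background was 26.66 against 25.86. Untreated sites had a median of 30 tags both inside and outside peaks, in a list that starts at 27, and folds of 5.56 and 3.04. For sites outside peaks the median distance to the nearest peak was 77.7 kb untreated and 1097 kb with mitoxantrone. The peaks themselves were sparser with mitoxantrone, with a median gap between neighbours of 1920 kb against 188 kb untreated. Within 10 kb of a peak were 679 of 7447 such untreated sites (9.12%) and 12 of 1303 mitoxantrone sites (0.921%). Most mitoxantrone sites thus lay more than 10 kb from any peak. The share to be met from the number of peaks alone was not computed. All mitoxantrone peaks with sites tie at 1. The highest-scoring of them were on chromosome 8 at 136289423 to 136294486 (score 89.79, 5064 bp), chromosome 4 at 35755259 to 35757144 (86.36, 1886 bp) and chromosome 3 at 8722621 to 8723600 (85.36, 980 bp). The latter pair overlapped no peak of any other list.

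The lists shared few places. Of the 702 mitoxantrone peaks 26 overlapped an untreated peak by at least 1 bp (3.70%, 2.43 to 5.38%), and 27 of the 9290 untreated peaks were overlapped (0.291%). No mitoxantrone site overlapped an untreated site, which with 0 of 1397 allows a share of up to 0.215%. Sites are short, with a median of 60 bp untreated and 40 bp with mitoxantrone. The share that would overlap by position alone was not computed for them, so no lack of shared sites can be read from this 0. The 26 peaks were on 10 chromosomes, with 10 on chromosome 8. They had a median width of 1466 bp and a median score of 61.22, against 1124 bp and 55.96 for the other 676. In bases, 1.22% of what the mitoxantrone peaks covered was in untreated peaks, which cover 0.161% of the span (7.58 times). The same ratio was 3.54 on chromosome 8 and 8.49 elsewhere. Against TOP2A mitoxantrone, a list that covers nearly the same 0.162% of the span, 37 peaks overlapped and the ratio was 15.2, with 4.85 on chromosome 8 and 18.0 elsewhere. Against TOP2A untreated it was 3.05. Against the 8 lists of the etoposide experiment the ratio was 1.80 to 2.29, with 1.51 to 2.62 outside chromosome 8 and 0.750 to 1.19 on it. The broad chromosome 8 peaks thus shared bases with the etoposide experiment about in proportion to how much of that whole chromosome those lists cover. Both these peaks and those lists are denser beyond 36 Mb, and the ratio for that part alone was not computed.

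Over the 11 other lists of the series, 252 mitoxantrone peaks (35.9%) overlapped no peak. This was 12 of the chromosome 8 peaks (7.84%) and 240 of the others (43.7%). A peak in 4 or more other lists was overlapped by 47 on chromosome 8 (30.7%) and 17 elsewhere (3.10%). Wider peaks meet others more often by their width alone, which the base ratios above take into account. The 5 highest-scoring overlaps with the untreated list were a pair on chromosome 6, 1 on chromosome 14 at 72140878 to 72141845 (99.02), 1 on chromosome 12 at 62011071 to 62011713 (89.38) and 1 on chromosome 8 at 39484842 to 39486987 (83.51). The chromosome 14 region overlaps the second highest score of the untreated list (1216.19, at 72141132 to 72141523), which holds 1 site.

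The highest scores of both lists belong to separate blocks of 1 stretch of chromosome 6. With mitoxantrone these were 24650918 to 24651716 (score 619.48, 799 bp, the highest of the list) and 24666446 to 24667471 (137.46, 1026 bp, the third). Untreated there were 4, at 24650952 to 24651377 (1066.81), 24652908 to 24653641 (714.62), 24658473 to 24658997 (2974.8, the highest of the list) and 24666513 to 24667265 (505.12). None of the 6 held a SISSRS site. Both mitoxantrone blocks had a peak in 10 of the 11 other lists, which no peak on chromosome 8 reached. The other leading mitoxantrone scores were on chromosome 8 at 142830221 to 142835277 (138.39, 5057 bp), 66311118 to 66315125 (130.67, 4008 bp) and 115455706 to 115459638 (123.6, 3933 bp), with no site and with peaks in 3, 4 and 2 other lists. By width the chromosome 6 blocks were thus ordinary, and by score the highest chromosome 8 peak lay just above the second of them.

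Some regions had few peaks in both lists. Chromosome X held 48 untreated peaks (0.518%, 0.0972 times the mean density) and 1 mitoxantrone peak (0.142%, 0.0267 times). From 90 to 160 Mb of chromosome 5 there were 29 (0.128 times) and 1 (0.0580 times). The short arm of chromosome 17 held 13 (0.180 times) and 1 (0.182 times). A single peak is a share with an interval of 0.00361 to 0.791%, so no difference between the lists was detectable there. Within 5 Mb of a chromosome end lay 9.25% of untreated and 9.26% of mitoxantrone peaks, but 17.4% and 5.10% of sites. Within 5 Mb of a centromere gap lay 6.22% and 7.41% of peaks and 11.9% and 6.60% of sites. In these places the peaks of the 2 libraries were thus alike in share, and the sites as deposited were not. The site lists start at 27 tags untreated and 62 with mitoxantrone, and these shares were not compared at a matched cut. For TOP2A the shares of sites were 8.94% and 4.88% near chromosome ends, and 7.69% and 7.91% near centromere gaps.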

How the data were processed

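The authors deposited, for each library, a list of MACS peaks and a list of SISSRS sites, called library by library on hg19. Bowtie2 2.2.5, MACS 1.4 and bedtools 2.26.0 are named per the submitters' processing notes. No source used here gives caller settings or says whether input was used. Deposited MACS lists give a score per peak, used to rank or filter within a list. The authors made, by a method not stated for its settings, the tag count, fold and p-value of each deposited SISSRS site; these columns have no header and were read from their values. The tag counts summed to 409179 untreated and 98275 with mitoxantrone, which moves with the number of sites and is not the depth. Reads were 50 bp paired-end.

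Shares, widths, overlaps (at least 1 bp) and densities were computed with scipy 1.17.1, pandas 2.3.3 and numpy 2.4.6 under Python 3.11.15, and drawn with matplotlib 3.10.9. Shares by chromosome or arm use chromosomes 1 to 22 and X. Arms were divided at the widest stretch of at least 2 Mb free of peaks in all 12 MACS lists, and chromosomes 13, 14, 15 and 22 have a long arm only. Overlap and union steps were tested on simulated lists with planted overlaps. Intervals are exact binomial at 95%. A limit for 0 is 3 counts of the total. With 1 library per group no test was run. Named regions were the 5 highest scores with mitoxantrone and 3 untreated, the 3 widest of each list, the 5 highest-scoring overlaps, the 3 fullest windows of 1 Mb, the 3 highest and 3 lowest arm ratios, and the 3 peaks with most sites, ties by score. The members, lists and rules were chosen with earlier results of these data known. The gene reference at hand is on another build, so no gene or sequence was assigned.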

Additional observations from a re-analysis of the deposited data

Results flagged for a closer look

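The 2 antibodies differed in direction in 1 of 9 measures compared between them. The chromosome 8 share of SISSRS sites was lower with mitoxantrone for TOP2B, by -20.9 percentage points, and higher for TOP2A, by 7.34 points. With 1 library per group this difference was not tested. The site lists also start at unlike tag counts, 27 untreated and 62 with mitoxantrone for TOP2B, and 27 and 34 for TOP2A. Against the untreated TOP2B sites with at least 62 tags, the mitoxantrone share was 3.86 points higher, a sign that is not settled. The opposite direction thus holds for the site lists as deposited only. The number of peaks, the number of sites, the median width and the chromosome 8 share of peaks went in the same direction for the 2 antibodies. So did the share of peaks with a site, the share of sites in peaks and the share of sites near chromosome ends. The share of peaks near chromosome ends was counted with them, but for TOP2B it was nearly equal (9.25% and 9.26%) and has no clear direction.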

How the results depend on the processing

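Of 87 alternative values for 15 results, 44 lay within the counting interval of the reported value (for counts and ratios, within 1.5 times it), 40 lay outside and 3 changed direction. The 3 were the difference in the chromosome 8 share, mitoxantrone minus untreated, which was -20.9 points with SISSRS sites and -20.8 points with peaks of 1 kb or wider, and that of the long arm, -18.6 points with SISSRS sites. The list size ratio was 7.91 with sites and 4.42 in bases. A score of at least 100 left 11 mitoxantrone and 137 untreated peaks. It gave median widths of 3654 and 588 bp, chromosome 8 shares of 63.6% and 11.3% (difference 52.4 points), long arm shares of 63.6% and 7.52% (56.1 points), 0% and 78.8% of peaks with a site, 0% and 1.05% of sites inside peaks, and 18.2% of mitoxantrone peaks (2 of 11) over an untreated one. In bases the chromosome 8 shares were 41.9% and 9.83% (32.0 points), the long arm shares 38.7% and 8.05% (30.7 points), and 10 arms passed 2-fold, against 5 reported. With sites the untreated shares were 42.9% for chromosome 8 and 38.7% for its long arm, the overlap was 0% and 16 arms passed 2-fold. Peaks of 1 kb or wider gave chromosome 8 shares of 34.7% and 55.6%, and 10.4% and 83.1% of peaks with a site. Without chromosome 8 the median widths were 1017 and 458 bp, 29.9% of untreated peaks held a site and 40.5% of untreated sites were inside peaks. The untreated list cut to equal length had a median width of 515 bp and a chromosome 8 share of 7.76%, and 1.14% of mitoxantrone peaks overlapped it. A reciprocal overlap of 50% also left 1.14%. The 121 untreated sites with at least 62 tags had 18.2% on chromosome 8 (11.8 to 26.2%), and the mitoxantrone sites had 3.86 points more. That setting, the ones without peaks near centromere gaps or without the chromosome 6 stretch, and the edge at 36 Mb were chosen after seeing the data. The cause of these changes was not tested. The mitoxantrone median width was above the untreated one under each alternative run for it. The depth is unknown, so no depth limit can be given. No paired analysis was possible because each group has 1 library and the results come from no test.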
